A study of Homo sapiens with 9 samples.

Results

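The 9 genes described here encode factors that make the 3' end of replication-dependent histone mRNAs, or act on these mRNAs or their genes. They were chosen by name, as SLBP, LSM10, LSM11, ZNF473, CASP8AP2, ERI1, NCBP1, NCBP2 and NPAT. The rule uses no measured value, but earlier results of these data were known when the genes were chosen. They are 9 of 19426 genes to which the exon array assigns probe sets of 1 symbol, and all 9 are among the 16748 genes for which a gene level could be computed. Their 164 probe sets each carry exactly 1 of these symbols, and 149 of them passed the filter on dim probe sets.

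Most mRNAs end in a poly(A) tail, but replication-dependent histone mRNAs end in a conserved stem-loop and carry no tail. SLBP binds the stem-loop, and the U7 small nuclear ribonucleoprotein, whose ring contains LSM10 and LSM11, pairs with the RNA downstream. CASP8AP2, also called FLASH, binds LSM11 and helps recruit a cleavage complex whose endonuclease is CPSF3, the same enzyme that cuts polyadenylated transcripts. ZNF473 is a zinc finger protein that associates with the U7 particle. NPAT activates histone gene transcription in S phase as a substrate of cyclin E with CDK2. NCBP1 and NCBP2 are the large and small subunits of the nuclear cap-binding complex, which takes part in this cleavage. ERI1 is an exonuclease that binds the stem-loop and trims or degrades the histone mRNA end. In cultured cells these genes take part in histone supply during DNA replication, which need not be their only role.

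Flip-In-293 cells descend from HEK293, a line of human embryonic kidney origin, and their total RNA was read on 9 Affymetrix Human Exon 1.0 ST arrays, which carry separate probe sets for most exons. All cells carried a lentivirus with a short hairpin RNA and had grown for 10 days after infection when RNA was taken. In 3 arrays the hairpin was directed at CPSF3, in 3 at RBFOX2, a splicing regulator, and in 3 control arrays it was non-silencing. The sources used here do not state the promoter driving the hairpins or the number of hairpins per target. The replicates are biological by their titles but technical by the series design, and p-values therefore cover only array-to-array spread, possibly technical. The cells were measured in bulk, so fewer cells of a kind and less RNA per cell cannot be told apart.

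A gene level is the median, on the deposited log2 scale, over the gene's probe sets whose mean over the 9 arrays reached 6.97, the median of all probe sets. Differences are in log2 units with the SE of a limma fit of all 3 groups (n = 3 arrays each). A gene was called where its p, adjusted by the Benjamini-Hochberg method over all 16748 genes, was under 0.05. Levels of different genes come from different probe sets and are not compared with each other.

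The targeted genes were read first. CPSF3 was at 9.60, 9.27 and 9.27 in the arrays labelled CPSF3 knockdown, at 9.74, 9.52 and 9.88 in RBFOX2 knockdown arrays, and at 9.33, 9.29 and 9.80 in control arrays. The values of the first and last of these groups overlapped, and the difference was -0.09 ± 0.16 (adjusted p = 0.752), so the CPSF3 transcript did not bear out that label against control, and every direction given for these arrays rests on the label. Against RBFOX2 knockdown arrays the difference of CPSF3 was -0.34 ± 0.16 in limma and did not pass (unadjusted p = 0.0487, adjusted p = 0.373). RBFOX2 was at 8.95, 8.82 and 9.05 in RBFOX2 knockdown arrays and at 9.66, 9.54 and 9.38 in control arrays, with no overlap. Its difference was -0.58 ± 0.12 and missed the threshold (adjusted p = 0.0617), which it passed with the mean over probe sets (-0.56, adjusted p = 0.0255) and with a stricter filter at the upper quartile of all probe sets, 8.36 (-0.67, adjusted p = 0.0247). Control replicate 3 stood apart from the other controls. Its mean correlation over gene levels was 0.969 with RBFOX2 knockdown arrays and 0.948 with the other controls, whereas control replicates 1 and 2 correlated at 0.941 and 0.928 with RBFOX2 knockdown arrays and at 0.963 and 0.955 with the other controls. Without this array the difference of CPSF3 was 0.07 in the arrays labelled CPSF3 knockdown and that of RBFOX2 was -0.66 in RBFOX2 knockdown arrays (adjusted p = 0.00424). Results below are also given without it. It was singled out from these same values as the control nearest the targeted arrays. With those labelled CPSF3 knockdown it correlated at 0.948, and control replicates 1 and 2 at 0.919 and 0.899. Leaving it out therefore tends to widen differences from control, and calls gained that way are no separate support. All 5 HEK293 markers had a median above the filter, and so did 4 of 6 fibroblast, 2 of 5 blood and 2 of 5 endothelial markers.

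In the arrays labelled CPSF3 knockdown, 3 of the 9 genes rose against control: NCBP1 by 0.98 ± 0.16, NPAT by 0.81 ± 0.18 and CASP8AP2 by 0.74 ± 0.16. None fell at the same threshold, where 4.38% of all genes fell, and the other 6 lay between -0.07 and 0.41 (5 of 9 had an unadjusted p under 0.05, all with a positive difference, as had 18.4% of all genes). Of all genes, 10.0% were called higher in this comparison. The median difference of the 9 genes was 0.27, and that of all genes was 0.01. In 4 of the 9 genes every array labelled CPSF3 knockdown lay above every control array, against 17.9% of all genes. With control replicate 3 left out the same 3 genes were called, by 1.20, 1.07 and 0.85, with 15.4% of all genes called higher.

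In RBFOX2 knockdown arrays 0 of the 9 genes passed the threshold against control in limma, and 3 had an unadjusted p under 0.05, all with a positive difference, as had 8.58% of all genes. Few genes were called in this comparison at all, 0.173% of those tested. The median difference of the 9 genes was -0.03, and that of all genes was 0.03. In 2 of the 9 genes all RBFOX2 knockdown arrays lay above all control arrays, as in 7.07% of all genes, and in 1 they lay below, as in 7.05%. Without control replicate 3, NCBP1 and NPAT were called higher by 0.81 (adjusted p = 0.00157) and 0.74 (adjusted p = 0.00297), with 7.03% of all genes called higher. These 2 calls rest on which control arrays are used. The 2 comparisons share their control arrays, so their values are given side by side without a measure of agreement.

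**Figure D1:**
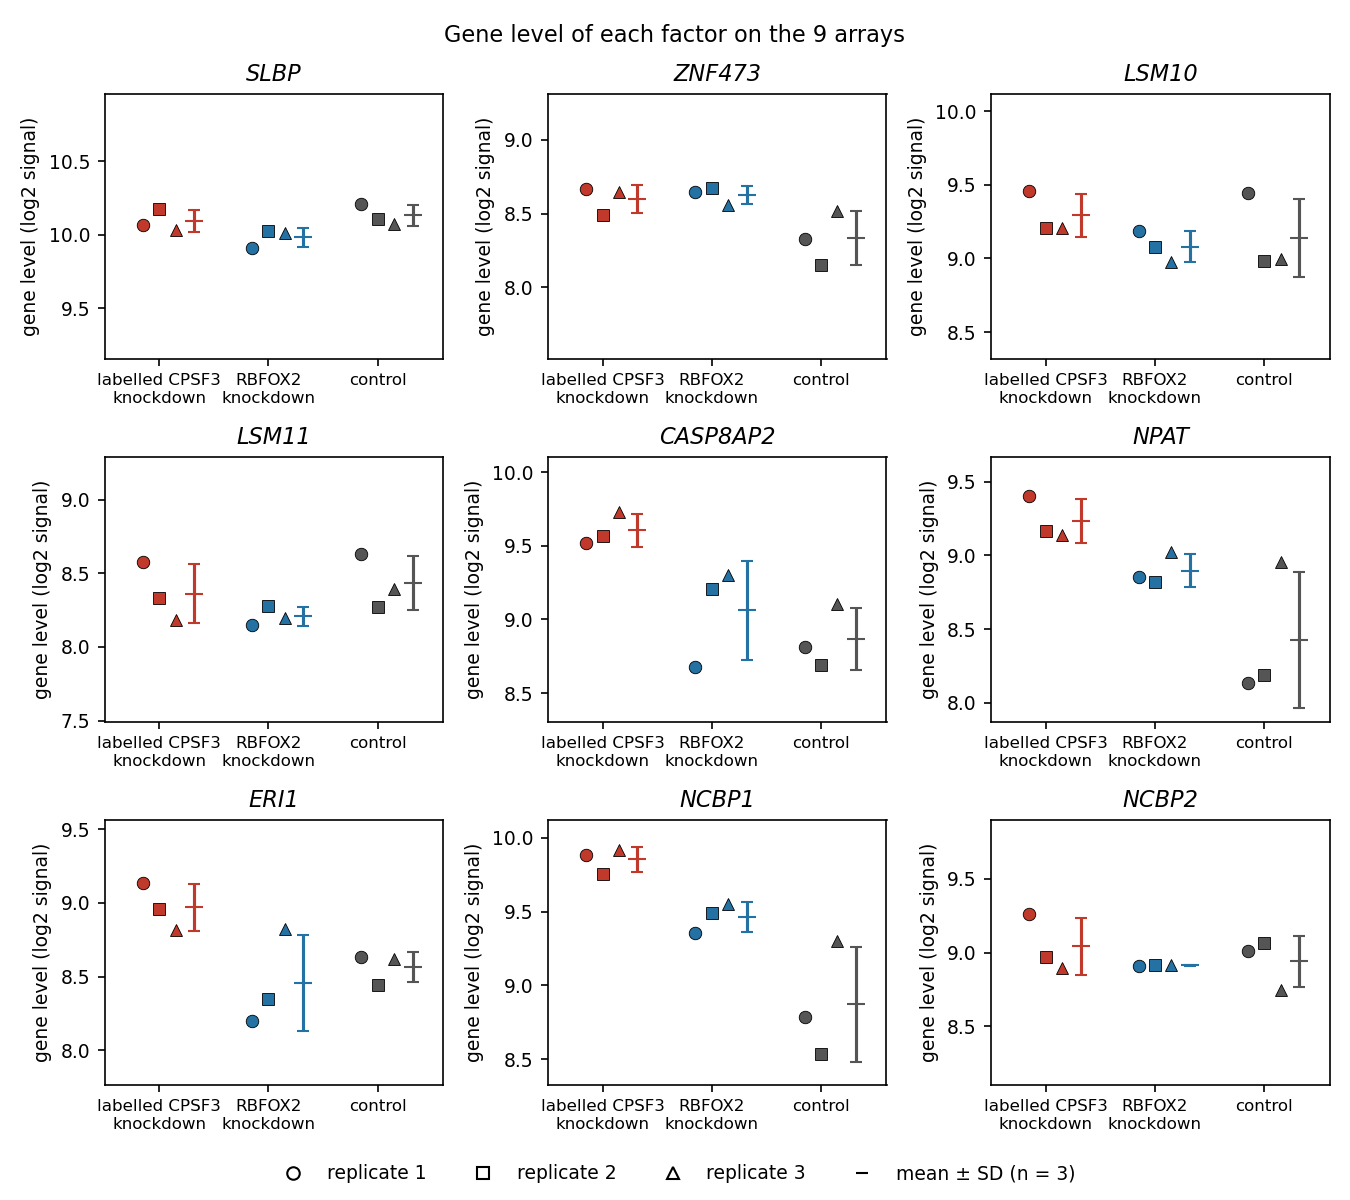
Gene level on the log2 scale of the 9 histone pre-mRNA processing genes, 1 panel each, with 1 symbol per array, shaped by replicate, and the mean ± SD of 3 arrays beside them, for the arrays labelled CPSF3 knockdown, RBFOX2 knockdown and control. NCBP1, NPAT, CASP8AP2 and ERI1 show all 3 arrays labelled CPSF3 knockdown above all control arrays, whereas the points of SLBP, LSM10, LSM11, ZNF473 and NCBP2 overlap between those groups.

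**Figure D2:**
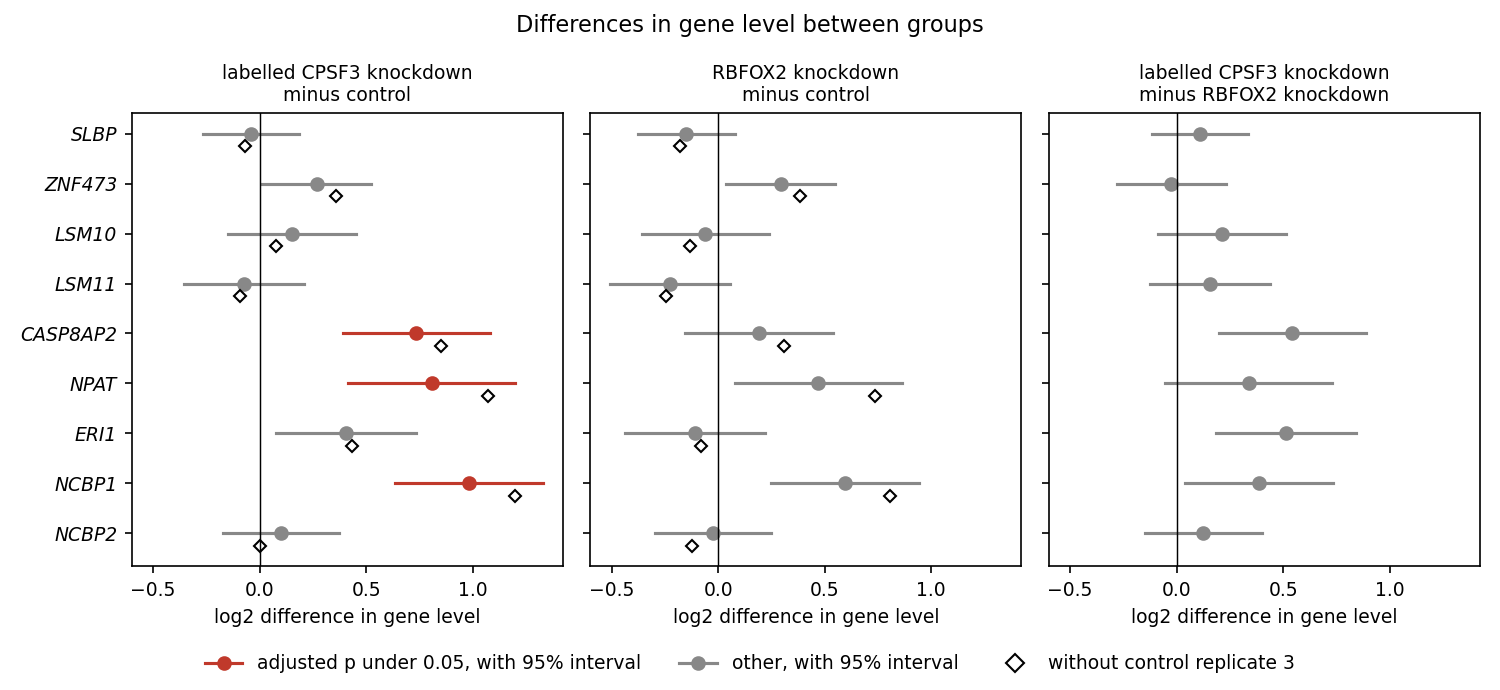
Difference in gene level on the log2 scale for each of the 9 genes in the 3 comparisons, with the 95% interval of the limma fit as a line, called genes in red and open diamonds for the difference without control replicate 3. Where the arrays labelled CPSF3 knockdown are set against control, the intervals of NCBP1, NPAT and CASP8AP2 lie farthest above 0, and those of SLBP, LSM10, LSM11 and NCBP2 span 0.

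None of the 4 factors that recognise the histone pre-mRNA or belong to the U7 particle passed the threshold. SLBP, the stem-loop binding protein, was at 10.07, 10.17 and 10.03 in the arrays labelled CPSF3 knockdown, at 9.91, 10.02 and 10.01 in RBFOX2 knockdown arrays, and at 10.21, 10.11 and 10.07 in control arrays. The arrays labelled CPSF3 knockdown overlapped the controls, while all RBFOX2 knockdown arrays lay below them. The difference was -0.04 ± 0.11 in the arrays labelled CPSF3 knockdown (adjusted p = 0.852), with a 95% interval of 0.831-fold to 1.14-fold. For RBFOX2 knockdown it was -0.15 ± 0.11 (adjusted p = 0.591), with an interval of 0.771-fold to 1.06-fold. The sign of the first difference depended on how probe sets were summarised, since the mean over probe sets gave 0.16.

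LSM10 and LSM11 replace 2 of the usual Sm proteins in the U7 ring. LSM10, read by 3 kept probe sets, was at 9.46, 9.21 and 9.21 in the arrays labelled CPSF3 knockdown, at 9.18, 9.08 and 8.98 in RBFOX2 knockdown arrays, and at 9.45, 8.98 and 8.99 in control arrays. As a median of 3, its level was on every array the value of the same probe set, ps2406727. LSM11 was at 8.58, 8.33 and 8.18 in the arrays labelled CPSF3 knockdown, at 8.15, 8.28 and 8.19 in RBFOX2 knockdown arrays, and at 8.63, 8.27 and 8.40 in control arrays. Both genes overlapped the controls in either comparison, and replicate 1 was the highest of the arrays labelled CPSF3 knockdown and of the controls for both. The difference in the arrays labelled CPSF3 knockdown was 0.15 ± 0.14 for LSM10 (adjusted p = 0.536, interval 0.902-fold to 1.37-fold) and -0.07 ± 0.13 for LSM11 (adjusted p = 0.782, interval 0.783-fold to 1.16-fold). For RBFOX2 knockdown it was -0.06 ± 0.14 for LSM10 (adjusted p = 0.911) and -0.23 ± 0.13 for LSM11 (adjusted p = 0.493).

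ZNF473, the U7-associated zinc finger protein, was at 8.67, 8.49 and 8.64 in the arrays labelled CPSF3 knockdown, at 8.65, 8.68 and 8.56 in RBFOX2 knockdown arrays, and at 8.33, 8.15 and 8.52 in control arrays. All RBFOX2 knockdown arrays lay above all controls, whereas 1 array labelled CPSF3 knockdown lay below control replicate 3. The differences were 0.27 ± 0.12 in the arrays labelled CPSF3 knockdown (adjusted p = 0.157) and 0.29 ± 0.12 in RBFOX2 knockdown arrays (adjusted p = 0.286), and neither passed. With the mean over probe sets the first was 0.31 and passed (adjusted p = 0.0318). The differences without control replicate 3 were 0.36 (adjusted p = 0.0517) and 0.39 (adjusted p = 0.0653).

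NPAT and CASP8AP2, which both reside at histone loci, rose in the arrays labelled CPSF3 knockdown. NPAT was at 9.40, 9.16 and 9.14 in these arrays, at 8.85, 8.82 and 9.02 in RBFOX2 knockdown arrays, and at 8.14, 8.19 and 8.96 in control arrays. All arrays labelled CPSF3 knockdown were above all others, and control replicate 3 lay within the RBFOX2 knockdown arrays while the other controls were lower. The level was 1.75-fold of control (95% interval 1.33 to 2.30, adjusted p = 0.0114). This call was lost without replicate 1 of the arrays labelled CPSF3 knockdown (0.72, adjusted p = 0.0590) and without control replicate 1 (0.66, adjusted p = 0.0567). For RBFOX2 knockdown the difference was 0.47 ± 0.18 and did not pass (adjusted p = 0.269).

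CASP8AP2 was at 9.52, 9.57 and 9.73 in the arrays labelled CPSF3 knockdown, at 8.68, 9.21 and 9.30 in RBFOX2 knockdown arrays, and at 8.81, 8.69 and 9.10 in control arrays. The arrays labelled CPSF3 knockdown were again above all others, and the remaining groups overlapped. The level was 1.67-fold of control (95% interval 1.31 to 2.12, adjusted p = 0.00981), a call kept in all 17 alternative settings at 0.49 to 0.85. For RBFOX2 knockdown the difference was 0.19 ± 0.16 (adjusted p = 0.663).

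The promoters of these genes are shown because NPAT and CASP8AP2 both rose, and that of SLBP, which was not called, is set beside them. RefSeq on GRCh38.p14 gave the window from 250 bases before to 50 after the start for SLBP, LSM10, LSM11, CASP8AP2, NCBP2 and NPAT, 6 of the 9 genes. The windows printed lie at chr6:89829630-89829929 on the plus strand for CASP8AP2, at chr11:108222589-108222888 on the minus strand for NPAT and at chr4:1712270-1712569 on the minus strand for SLBP. Each is written 5' to 3' along its gene. Capitals mark matches, on either strand, to CCAAT, to the GC box GGGCGG, and to E2F-type sites spelled TTCCCGC or TTGGCGC.
CASP8AP2: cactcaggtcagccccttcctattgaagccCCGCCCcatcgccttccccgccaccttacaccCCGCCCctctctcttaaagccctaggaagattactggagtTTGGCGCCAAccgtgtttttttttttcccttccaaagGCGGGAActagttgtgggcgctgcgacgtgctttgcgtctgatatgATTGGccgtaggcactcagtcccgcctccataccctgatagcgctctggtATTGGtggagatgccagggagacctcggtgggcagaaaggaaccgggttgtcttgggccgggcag
NPAT: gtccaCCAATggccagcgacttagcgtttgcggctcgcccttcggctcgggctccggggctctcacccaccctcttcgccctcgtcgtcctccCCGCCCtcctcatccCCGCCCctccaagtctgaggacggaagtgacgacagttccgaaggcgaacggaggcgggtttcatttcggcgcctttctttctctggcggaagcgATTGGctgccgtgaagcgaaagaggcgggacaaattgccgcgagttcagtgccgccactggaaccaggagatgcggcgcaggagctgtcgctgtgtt
SLBP: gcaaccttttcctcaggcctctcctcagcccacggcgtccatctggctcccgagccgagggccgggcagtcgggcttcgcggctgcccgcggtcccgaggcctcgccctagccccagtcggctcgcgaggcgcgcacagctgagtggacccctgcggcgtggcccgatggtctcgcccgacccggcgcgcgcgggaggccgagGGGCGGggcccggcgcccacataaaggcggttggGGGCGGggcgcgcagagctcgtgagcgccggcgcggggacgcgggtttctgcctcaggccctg

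CASP8AP2 held 2 matches to CCAAT, 2 to the GC box and 3 to the E2F-type letters, of which 2 overlap each other on opposite strands, beginning 148 and 145 bases before the start. NPAT held 2 matches to CCAAT and 2 to the GC box, and SLBP held 2 to the GC box only. Among the 6 windows, 4 held CCAAT (LSM10, CASP8AP2, NCBP2 and NPAT), as did 34.6% of 35116 promoters, and 5 held the GC box, as did 45.0%. The E2F-type letters were found in CASP8AP2 alone of the 6, and in 9.23% of all promoters. Matches to CCGGAAG (ETS-type, 10.3% of promoters), TGACGTC (CRE-type, 3.45%) and GCATGCG (NRF1-type, 3.91%) were found in 0 of the 6. These matches describe letters in the windows. The arrays measured no binding there.

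Of the 2 subunits of the cap-binding complex, NCBP1 rose in the arrays labelled CPSF3 knockdown and NCBP2 did not pass the test. NCBP1, the large subunit, was at 9.89, 9.76 and 9.92 in the arrays labelled CPSF3 knockdown, at 9.35, 9.49 and 9.55 in RBFOX2 knockdown arrays, and at 8.78, 8.53 and 9.30 in control arrays. The 3 groups did not overlap, and control replicate 3 was the highest control. The level in the arrays labelled CPSF3 knockdown was 1.98-fold of control (95% interval 1.55 to 2.52, adjusted p = 0.00307), and the call was kept in all 17 alternative settings at 0.81 to 1.20. For RBFOX2 knockdown it was 1.51-fold (interval 1.19 to 1.92), which did not pass the adjustment over all genes (adjusted p = 0.146).

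NCBP2, the small subunit, was at 9.26, 8.97 and 8.89 in the arrays labelled CPSF3 knockdown, at 8.91, 8.92 and 8.92 in RBFOX2 knockdown arrays, and at 9.01, 9.07 and 8.74 in control arrays. All 3 groups overlapped. The difference was 0.10 ± 0.13 in the arrays labelled CPSF3 knockdown (adjusted p = 0.668, interval 0.887-fold to 1.30-fold) and -0.03 ± 0.13 in RBFOX2 knockdown arrays (adjusted p = 0.961, interval 0.813-fold to 1.19-fold). The sign of the first turned with the mean over probe sets and with the stricter filter, and the values are listed under the processing alternatives. Whether NCBP1 and NCBP2 differ in response from each other was not tested.

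ERI1, the exonuclease that binds the stem-loop, was at 9.14, 8.96 and 8.82 in the arrays labelled CPSF3 knockdown, at 8.20, 8.35 and 8.82 in RBFOX2 knockdown arrays, and at 8.63, 8.45 and 8.62 in control arrays. All arrays labelled CPSF3 knockdown lay above all controls, while RBFOX2 knockdown arrays spread on both sides of them. The difference of 0.41 ± 0.15 did not pass (adjusted p = 0.0965), with an interval of 1.05-fold to 1.66-fold. It passed without RBFOX2 knockdown replicate 3 (adjusted p = 0.0449). For RBFOX2 knockdown the difference was -0.11 ± 0.15 (adjusted p = 0.841).

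Set directly against RBFOX2 knockdown arrays, the arrays labelled CPSF3 knockdown had a positive difference in 8 of the 9 genes, as in 50.1% of all genes, and 0 passed the threshold in limma (3 had an unadjusted p under 0.05, all with a positive difference, as had 7.93% of all genes). Of all genes, 0.400% were called here. The largest differences were those of CASP8AP2 at 0.54 ± 0.16 (adjusted p = 0.182) and ERI1 at 0.51 ± 0.15 (adjusted p = 0.184), followed by NCBP1 at 0.39 ± 0.16 (adjusted p = 0.320) and NPAT at 0.34 ± 0.18 (adjusted p = 0.465). In 5 of the 9 genes the groups did not overlap, against 10.9% of all genes. A rise against control in 1 group without a call in the other is therefore not shown to be a difference between the targeted groups.

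The single probe sets show how far each gene moved as a unit. Adjusted over all 692116 kept probe sets, 16 of the 149 probe sets of these genes were higher in the arrays labelled CPSF3 knockdown than in control, 13 of them in NCBP1 and 3 in NPAT, and 0 were lower. Among all kept probe sets with 1 gene, 1.84% were called higher. NCBP1 had 30 of 31 probe sets with a positive difference, a median of 0.94, and NPAT had 30 of 31, a median of 0.77. CASP8AP2 had 14 of 16 positive with a median of 0.61, and its smallest adjusted p was 0.0554 (ps2916976, 1.02 ± 0.24). For SLBP 8 of 11 were positive (median 0.17), for ZNF473 17 of 21 (0.34) and for ERI1 12 of 13 (0.34), whereas LSM10 had 1 of 3, LSM11 3 of 8 and NCBP2 6 of 15. A positive difference was found in 54.0% of all kept probe sets with 1 gene. An unadjusted p under 0.05 with a rise was found in 27 probe sets of NCBP1, 29 of NPAT and 9 of CASP8AP2, against 15.2% of all. Probe sets of 1 gene share its transcripts and are not independent replicates.

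The probe set of NCBP1 with the largest rise, ps3181310, was at 10.54, 10.47 and 10.87 in the arrays labelled CPSF3 knockdown, at 9.35, 9.81 and 10.36 in RBFOX2 knockdown arrays, and at 8.78, 9.02 and 9.30 in control arrays. The 3 groups were ordered without overlap, and the rise was 1.59 ± 0.24 (adjusted p = 0.0182). Next came ps3181329 at 1.44 ± 0.25, and the 2 smallest called rises were those of ps3181333 at 0.88 and ps3181327 at 0.85. In NPAT, ps3390112 was at 9.03, 9.09 and 9.17 in the arrays labelled CPSF3 knockdown, at 7.74, 8.41 and 8.75 in RBFOX2 knockdown arrays, and at 7.70, 7.32 and 8.04 in control arrays. The arrays labelled CPSF3 knockdown were above all others, with a rise of 1.41 ± 0.25 (adjusted p = 0.0263), followed by ps3390103 at 1.17 and ps3390075 at 0.84.

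These calls depend on the arrays included. Leaving out any 1 of the arrays labelled CPSF3 knockdown, or control replicate 1 or 2, left 0 of the 149 probe sets called, and leaving out RBFOX2 knockdown replicate 2 left 9. The loss was series-wide, since with any 1 of those first 5 arrays left out 106 to 279 of the 692116 kept probe sets were called, against 11088 with all arrays. The differences themselves moved less, to 1.47 to 1.73 for ps3181310 and 0.80 to 0.93 for ps3390075 over all 9 arrays left out in turn. Without control replicate 3 there were 52 higher and 1 lower, among them 24 in NCBP1, 22 in NPAT and 4 in CASP8AP2. Of all 692116 kept probe sets, 3.95% were then called higher and 13176 lower. In RBFOX2 knockdown arrays 0 of the 149 were called, as against 0.000750% of kept probe sets with 1 gene. NCBP1 still had 31 of 31 and NPAT 30 of 31 positive differences there, against 55.6% of all, with 19 and 12 rises at an unadjusted p under 0.05, against 6.40%. Without control replicate 3 there were 16 higher and 1 lower, with 1.29% of all 692116 kept probe sets higher and 9908 lower. Between the targeted groups 0 were called, as among all (0%), and 134 of 149 were positive, against 53.3%.

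**Figure D3:**
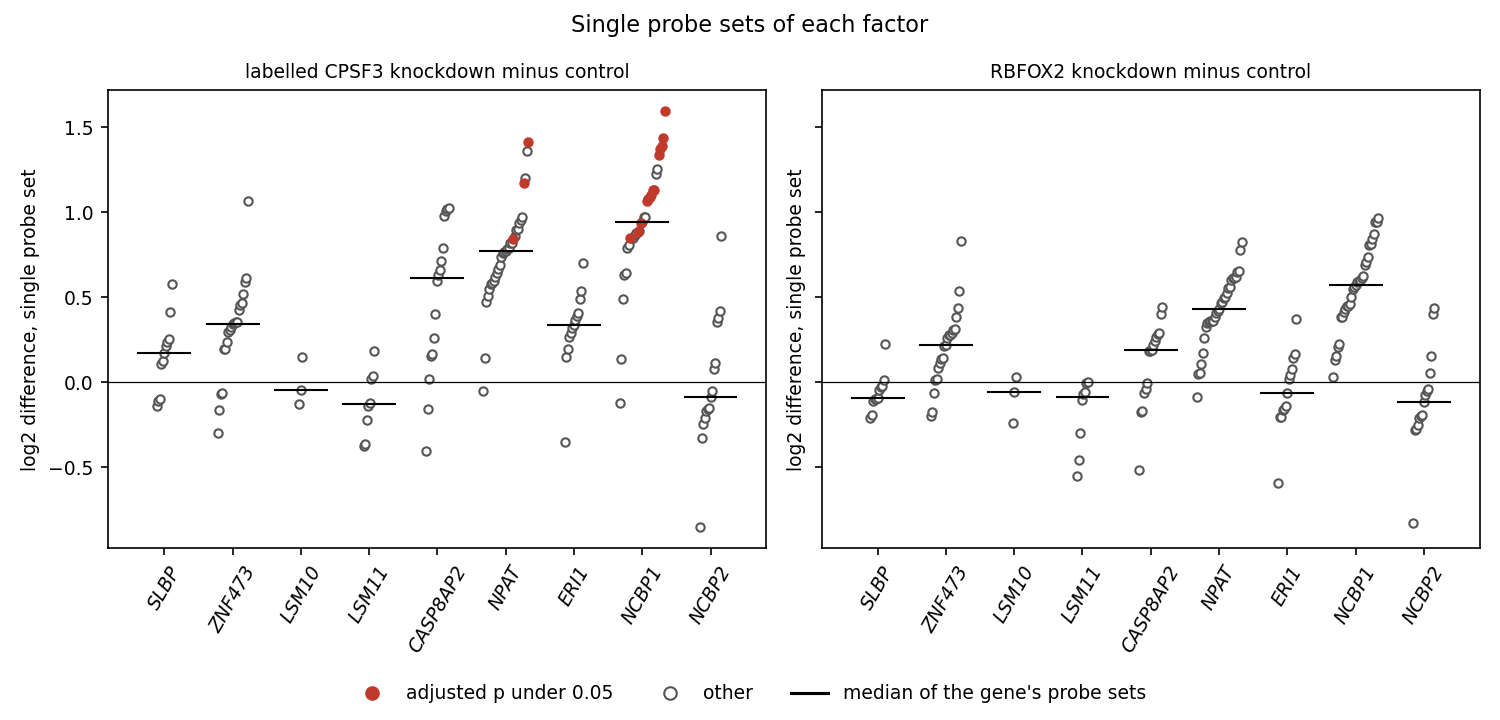
Difference on the log2 scale of each kept probe set of the 9 genes, grouped by gene, with 1 panel per comparison with control, called probe sets drawn filled and a bar at the gene's median. NCBP1 and NPAT lie almost wholly above 0 in both panels, and called probe sets appear only for those genes, in the panel of the arrays labelled CPSF3 knockdown.

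The signal of a probe set relative to the level of its own gene was tested for 146 probe sets in 8 genes, LSM10 having too few. In the arrays labelled CPSF3 knockdown 0 of the 146 passed in limma, as did 0% of all 257548 tested, and 23 had an unadjusted p under 0.05, against 12.7% of all. In RBFOX2 knockdown arrays 0 passed, again with 0% of all, and 12 had an unadjusted p under 0.05, against 7.88%.

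The smallest adjusted p, 0.0849, belonged to NCBP2. Its probe set ps2713079 was at 8.81, 8.44 and 8.43 in the arrays labelled CPSF3 knockdown, at 8.42, 8.79 and 8.54 in RBFOX2 knockdown arrays, and at 9.84, 9.47 and 8.92 in control arrays. Both targeted groups lay below all controls, and control replicate 3 was the closest to them. Another, ps2713082, was at 9.41, 8.94 and 8.91 in the arrays labelled CPSF3 knockdown, at 8.29, 8.75 and 8.86 in RBFOX2 knockdown arrays, and at 8.24, 7.97 and 8.47 in control arrays, so that the first group lay above all controls. As single probe sets the differences of the arrays labelled CPSF3 knockdown were -0.85 ± 0.22 (adjusted p = 0.0789) and 0.86 ± 0.21 (adjusted p = 0.0617), and those of RBFOX2 knockdown were -0.83 ± 0.22 (adjusted p = 0.283) and 0.40 ± 0.21 (adjusted p = 0.612). Which exons these probe sets read is not analysed here.

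Without control replicate 3, 5 of the 146 passed in the arrays labelled CPSF3 knockdown, with 1.49% of all. They were ps2713079 at -1.10 and ps2713082 at 0.98 in NCBP2, ps3181304 at -1.05 and ps3181339 at -1.53 in NCBP1, and ps2916980 at -1.05 in CASP8AP2. They were named after their values were seen. Over all arrays the signals of the last 3 probe sets themselves lay close together, at 13.19 ± 0.07 in the arrays labelled CPSF3 knockdown against 13.05 ± 0.08 in control for ps3181304, at 8.41 ± 0.35 against 8.53 ± 0.37 for ps3181339 and at 7.91 ± 0.17 against 8.07 ± 0.07 for ps2916980 (SD, n = 3), while the levels of NCBP1 and CASP8AP2 were higher.

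**Figure D4:**
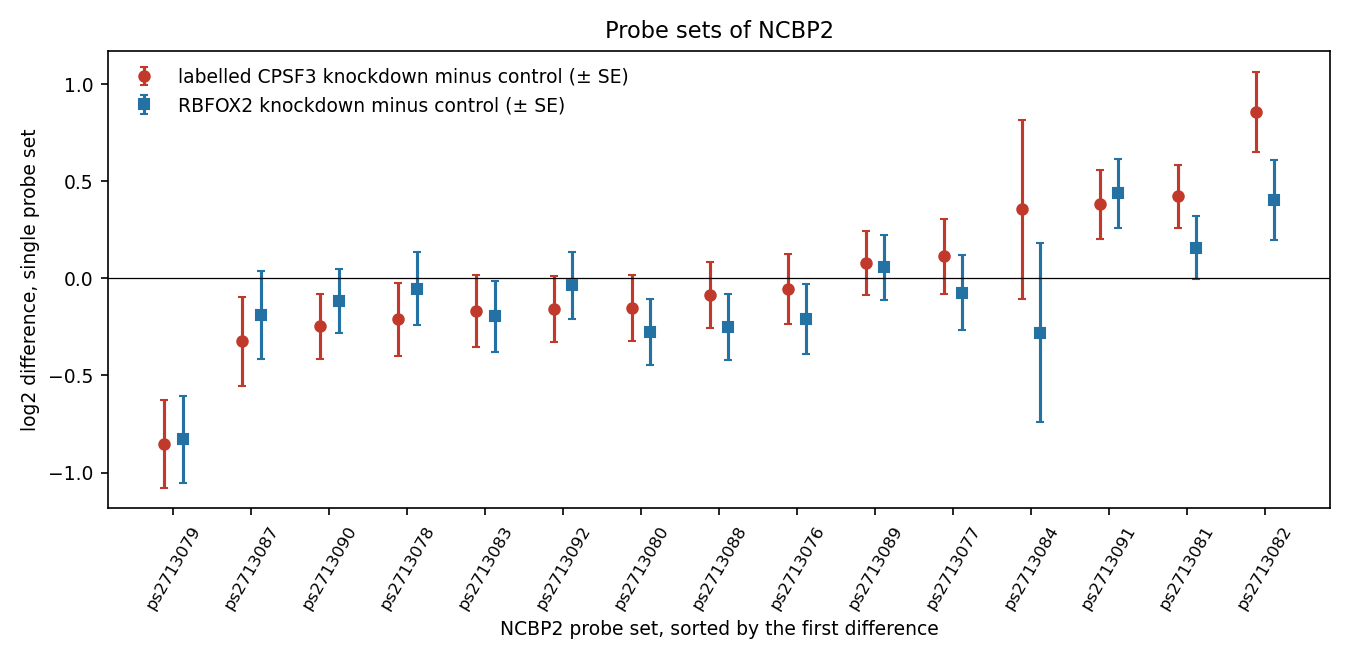
Log2 difference from control, ± SE, of each of the 15 kept probe sets of NCBP2 in the arrays labelled CPSF3 knockdown (circles) and in RBFOX2 knockdown arrays (squares), ordered by the first of these differences. At the left end ps2713079 is at -0.85 and -0.83 in the 2 comparisons, and at the right end ps2713082 is at 0.86 and 0.40.

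Other genes of the pathway were read from lists. In the arrays labelled CPSF3 knockdown, 2 of 5 cleavage factors shared with polyadenylation rose (median of the list 0.39). CPSF2, the catalytically inactive partner of CPSF3, was at 9.88 ± 0.13 against 8.99 ± 0.40 in control (SD, n = 3), a rise of 0.88 ± 0.17 (adjusted p = 0.00605), and CSTF2T rose by 0.51 ± 0.13. Of 10 measured genes for assembly of small nuclear ribonucleoproteins, which load Sm and LSM proteins onto RNA, 6 rose and 0 fell (median 0.47), led by WDR77 at 0.78 ± 0.18 and the helicase DDX20 at 0.72 ± 0.14. The Sm proteins themselves had 0 of 7 called in limma (1 at an unadjusted p under 0.05), with a median of 0.02. Among 6 partners of the cap-binding complex, only the export adaptor ALYREF was called, at 0.47 ± 0.13 (median 0.26).

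Genes around histone supply moved as follows in the same comparison. Of 7 histone mRNA decay genes, 2 rose (median 0.39), LSM1 of the ring that binds oligouridylated mRNA ends by 0.65 ± 0.16 and the uridylyl transferase TUT7 by 0.55 ± 0.14. Of 6 measured cyclins, kinases and related regulators upstream of NPAT and SLBP, 2 rose (median 0.27), CCNE2 by 0.70 ± 0.13 and CCNE1 by 0.40 ± 0.11, both cyclins E. Of 18 S phase genes 5 rose and 0 fell (median 0.22), led by the DNA polymerase subunit POLE2 at 1.03 ± 0.17 and the replication helicase subunit GINS4 at 0.71 ± 0.12. Of 39 replication-dependent histone genes, 15 could be measured (median -0.11). H2BC21 fell by 1.15 ± 0.31, H2BC11 by 0.98 ± 0.21 and H2BC26 by 0.40 ± 0.13, the last named after its value was seen, and H1-1 rose by 0.54 ± 0.15, a value that was 0.20 with the mean over probe sets and 0.12 with no filter, without a call in either. Beside these counts stand 10.0% of all genes called higher and 4.38% called lower. Up to 2 highest and 2 lowest called genes per list were followed in alternative settings. Several of their calls were lost, and the closing part names them. Other called genes of the lists, among them H2BC26, were not followed.

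In RBFOX2 knockdown arrays 0 genes of these 8 lists passed in limma, where only 0.173% of all genes were called. Of their 74 measured genes 11 had a positive and 8 a negative difference at an unadjusted p under 0.05, against 8.58% and 5.06% of all genes. Without control replicate 3, calls appeared there too, beside 7.03% of all 16748 genes higher and 369 lower. Higher were 1 of 5 cleavage factors (CPSF2, 0.67), 2 of 10 assembly genes and 1 of 7 decay genes (LSM1, 0.50). So were 2 of 18 S phase genes, among them POLE2 at 0.93, and 1 of 15 histone genes. Lower were 1 of 7 Sm proteins (SNRPG, -0.55), 1 of 6 cap-binding partners (NCBP3, -0.51) and 1 decay gene (DCP2, -0.60). Of the histone genes 3 were lower, among them H2BC11 at -1.25 and H2BC21 at -1.43. In the arrays labelled CPSF3 knockdown, 3 of 5 cleavage factors, 6 of 10 assembly genes and 3 of 7 decay genes were then higher. So were 2 of 6 cyclins and kinases and 6 of 18 S phase genes, with 1 S phase gene lower. Sm proteins had 1 of 7 higher and 1 lower, cap-binding partners 1 of 6 higher, and histone genes 1 of 15 higher and 3 lower. Of all genes, 15.4% were higher there and 20.5% were called either way. With all arrays, and directly against RBFOX2 knockdown arrays, the arrays labelled CPSF3 knockdown differed in 1 of the 74 genes. This was GEMIN5, which reads the snRNA, at 0.76 ± 0.15 (adjusted p = 0.0459 in limma). Of all genes, 0.400% were called in this comparison. Without control replicate 3, 1 of 10 assembly genes and 1 of 6 cyclins and kinases were higher in it, beside 0.376% of all genes.

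Markers of the cell line moved in the same comparison. Of 5 HEK293 markers, 3 fell in the arrays labelled CPSF3 knockdown, against 4.38% of all genes. VIM fell by 1.05 ± 0.12, NEFL by 0.87 ± 0.12, and KRT8, named after its value was seen, by 0.57 ± 0.13. The summed level of the 5 was 47.9 to 48.4 in the arrays labelled CPSF3 knockdown, 48.9 to 49.8 in RBFOX2 knockdown arrays and 50.8 to 51.6 in control arrays, without overlap between any groups. How often sums of other genes separate in this way was not examined. In RBFOX2 knockdown arrays 0 of the 5 markers were called against control in limma. There 3 had a negative difference at an unadjusted p under 0.05, against 5.06% of all genes. Of fibroblast, blood and endothelial markers, 0 of 15 measured were called in limma against control (2 at an unadjusted p under 0.05 in either comparison). Of all genes, 10.0% were higher and 4.38% lower in the arrays labelled CPSF3 knockdown, and 0.173% were called in RBFOX2 knockdown arrays. Without control replicate 3, 3 of the 5 HEK293 markers also fell in RBFOX2 knockdown arrays, beside 369 of all 16748 genes. Then 1 of 6 fibroblast markers was called higher in each comparison, beside 15.4% of all genes in the arrays labelled CPSF3 knockdown and 7.03% in RBFOX2 knockdown arrays. The part of these shifts in the rise of NCBP1, NPAT and CASP8AP2 was not tested.

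**Figure D5:**
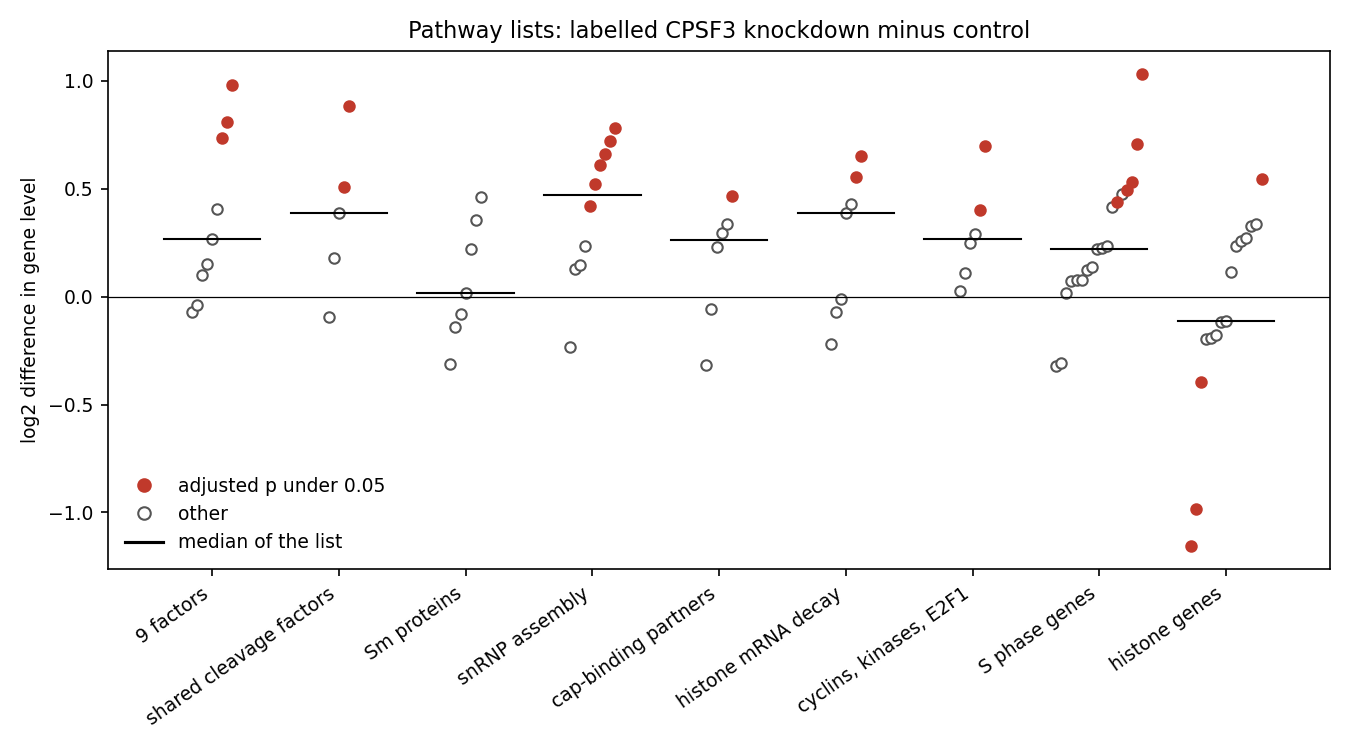
Difference in gene level on the log2 scale between the arrays labelled CPSF3 knockdown and control for the 9 histone pre-mRNA processing genes and each measured gene of the 8 pathway lists, with called genes drawn filled and the list median as a bar. The assembly genes have 6 filled points, all above 0, and the histone genes H2BC21 and H2BC11 lie lowest.

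Across the 9 arrays the genes with the profile most like each called gene were found by Pearson correlation of gene levels, given as a description since the arrays share their groups. For NCBP1 these were NCOA6 (r = 0.99), BRCA1 (0.99) and NUMB (0.99), for NPAT they were APEX1 (0.99), ENOSF1 (0.99) and TUBD1 (0.99), and for CASP8AP2 they were KNL1 (0.98), DPY19L2P2 (0.97) and NOL11 (0.97). Among the 9 genes themselves, NCBP1 and NPAT had r = 0.95 over the 9 arrays, CASP8AP2 and NPAT 0.79, and NCBP1 and NCBP2 0.01. Group differences enter all of these values.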

How the data were processed

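Total RNA of 9 samples was measured on exon arrays. The authors deposited 1 log2 signal per probe set and array. Per the submitters' processing notes these came from Affymetrix Power Tools with RMA on genome build hg18. The series design adds the Exon Array Computational Tool. Their versions were not given in the sources used here. Because RMA forces all arrays into 1 distribution, shifts common to most transcripts are removed, and changes of dim probe sets are compressed. Array medians differed by at most 0.03. The number of arrays, 3 per group, limits the precision.

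Of 1384231 probe sets, 354600 had 1 gene symbol in the platform annotation, updated to RefSeq symbols where a synonym belonged to 1 gene. Probe sets were kept at a mean of at least 6.97 (692116), and those of several or no symbol were not named. Gene levels were medians over at least 3 kept probe sets, and relative probe set signals needed at least 5. Fits used lmFit and eBayes of limma 3.58.1 in R 4.3.3, with version 1.17.8 of data.table, on 3 groups without a block, 2-sided, with Benjamini-Hochberg adjustment at 0.05 over all features. The methods were tested on simulated data with independent noise and added differences. Those data held no deviating control array, so they do not show how stable the calls are here. The smallest p of an exact permutation test between 2 groups is 0.1 here.

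The rule for the 9 genes uses no measured value, but they and the lists were chosen with earlier results of these data known. Named are the 9 genes, both targets, per gene up to 2 highest and 2 lowest called probe sets or the one with the smallest p, up to 2 highest and 2 lowest called genes per list, and the 3 genes most correlated with each called member. Alternatives were other filters, normalisations, summaries, variance models and sample sets.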

Additional observations from a re-analysis of the deposited data

How the results depend on the processing

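Across 17 alternative settings the number of the 9 genes called in the arrays labelled CPSF3 knockdown against control was 2 to 4, and NCBP1 and CASP8AP2 were called in each. In RBFOX2 knockdown arrays the count was 0 except without control replicate 3, where it was 2, and between the targeted groups it was 0 in all. Signs turned only for genes that had not passed. In the arrays labelled CPSF3 knockdown against control, the mean over probe sets gave -0.0053 for LSM10, -0.0032 for NCBP2 and 0.16 for SLBP, and the stricter filter gave -0.20 for NCBP2. The stricter filter gave 0.017 for ERI1 in RBFOX2 knockdown arrays. Between the targeted groups it gave -0.0030 for LSM11 and 0.12 for ZNF473, for which the mean gave 0.099 and no filter 0.020. The cause was not tested. With 1 array left out, signs turned against control for CPSF3 (-0.20 to 0.071), LSM11 (-0.18 to 0.028) and NCBP2 (-0.0090 to 0.18) in the arrays labelled CPSF3 knockdown, and for ERI1 (-0.29 to 0.022), LSM10 (-0.14 to 0.093) and NCBP2 (-0.12 to 0.037) in RBFOX2 knockdown arrays. Between the targeted groups ZNF473 ranged over -0.059 to 0.029.

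Among the pathway genes followed, calls against control were lost in 5 of 17 settings for ALYREF, CSTF2T and H2BC21, 6 for CCNE1, 3 for LSM1, 4 for TUT7, 1 for WDR77 and 7 of 16 for H1-1. They were kept in all 17 for CPSF2, CCNE2, DDX20, POLE2, GINS4 and H2BC11. GEMIN5 was lost in 9 of 17 settings between the targeted groups.

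Of the 149 single probe sets, the 16 calls in the arrays labelled CPSF3 knockdown became 0 with no filter, 36 with the stricter filter and 0 to 53 when 1 array was left out, and in RBFOX2 knockdown arrays the 0 became 0 to 17. For relative signal the 0 calls in the arrays labelled CPSF3 knockdown became 0 to 5. Counts over all features moved too. In the arrays labelled CPSF3 knockdown against control, 2409 genes were called, or 965 to 3429 with 1 array left out. For single probe sets the count was 11088, or 74 with no filter, 18046 with the stricter filter and 106 to 40520 with 1 array left out, and for relative signal 0, or 678 with the mean and 0 to 3825. In RBFOX2 knockdown arrays 29 genes were called, or 19 with centred arrays, 44 with the mean, 7 with no filter, 5 with only the compared groups and 2 to 1546 with 1 array left out. There the 3 single probe sets became 0 with no filter, 23 with the stricter filter and 0 to 18869, and the 0 relative signals became 1 with the mean and 0 to 823. Between the targeted groups the 67 genes became 140 with the mean, 18 with no filter, 149 with only the compared groups and 14 to 145, and the 0 single probe sets became 81 with the stricter filter.

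The replicate numbers were not used to pair the arrays. Of 9 same-numbered pairs, 3 had deviations correlated above 0.1, over a range of -0.14 to 0.33. Pairs with different numbers were not set beside them, so these values cannot decide whether the arrays were paired. With the replicate block, 27 of the 149 probe sets were called in the arrays labelled CPSF3 knockdown, 137 genes and 0 single probe sets over all in RBFOX2 knockdown arrays, and 42 genes between the targeted groups. The block changed the call of no member gene, but RBFOX2 in RBFOX2 knockdown arrays passed with it (adjusted p = 0.0451).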
